A study of Mus musculus with 6 samples.

Results

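Molecular chaperones help other proteins to fold, keep damaged ones from clumping and hand some on for degradation. Heat shock proteins are the chaperones whose genes many cells switch on under heat, oxidation or mechanical load through heat shock factor, while the chaperones of the endoplasmic reticulum answer to the unfolded protein response. In slow, continuously active muscle the small heat shock proteins are known as guardians of the sarcomere and its desmin scaffold.

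The genes described here are 10 named heat shock proteins and chaperones: the small heat shock proteins Cryab, Hspb1 and Hspb2, the cytosolic chaperones Hspa8, Hsp90aa1, Hsp90ab1 and Dnajb1, the endoplasmic reticulum chaperone Hspa5, and the mitochondrial pair Hspd1 and Hspe1. All probe sets to which the array annotation gives exactly 1 gene symbol, that of one of these genes, were taken. Hsp90ab1 had no such probe set, so 9 of the 10 genes were represented, by 13 of the 12488 probe sets on the array.

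Expression was measured in the soleus of male mice, a calf muscle rich in slow oxidative fibres, on 1 Affymetrix array per sample. The series is titled for sex differences in muscle function and for estrogen receptor beta, a nuclear receptor whose gene is Esr2. The groups were 3 samples of mice lacking estrogen receptor beta, called BERKO in the labels, whose strain the labels do not give, and 3 samples of wild-type C57BL/6 mice. The labels give neither age nor treatment, and do not say whether the samples are separate animals, so p-values measure only the spread between them.

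Values are the authors' signal intensities on a linear scale. The array medians ran from 36.8 to 40.5, and the 3' over 5' signal of the Gapdh control, which rises as RNA degrades, from 0.953 to 1.04 on the knockout arrays and from 0.979 to 1.12 on the wild-type arrays. The Esr2 probe set read 8.4, 3.9 and 6.2 in the knockout and 2.2, 3.2 and 1.3 in wild type, too low to check the genotype. Skeletal muscle markers (Acta1, Ckm, Myh7 and others) exceeded 39.4, the median of all values, for 8 of 8 genes on 1 array or more. Their summed intensity was 58988 to 62701 on the knockout arrays and 45642 to 59294 on the wild-type arrays. Of the other marker lists, macrophage genes were lower in the knockout for 8 of 10 adipocyte genes for 6 of 6 and red blood cell genes for 3 of 3, and tendon genes were higher for 3 of 3, with overlapping sums in these 4 lists. The red blood cell sum was 2117 to 2381 on the knockout arrays and 1733 to 4724 on the wild-type arrays. Replicate 2 of each group shares a title prefix that the other 4 arrays do not have. What the prefix stands for is not given, so values within each prefix are given beside the results that it moves. In whole muscle, fewer cells of a type and less RNA per cell cannot be told apart.

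Testing required a value above 39.4 on at least 3 of the 6 arrays. By this rule 9 chaperone probe sets of 8 genes were tested, and 4 were not. No chaperone gene passed the test between knockout and wild type. In limma 0 of the 9 probe sets reached an adjusted p of 0.05 (adjusted p = 0.923 to 0.996), as did 0 of all 6369 probe sets tested (0%). At an unadjusted p under 0.05 there was 1 chaperone probe set, of Hspb2, where 5.24% of all probe sets tested passed. It was also the 1 chaperone probe set whose groups did not overlap, against 10.7% of all probe sets tested. Of the 9, 7 were lower in the knockout and 2 higher, where 53.2% of all probe sets tested were lower. Other settings changed the count without overlap. It was 3 after quantile normalization, which makes the arrays' distributions equal, against 9.31% of all probe sets, and 5 within the 4 arrays that share the larger prefix, against 41.0%. It was 2 without knockout replicate 2 (25.0% of all), without knockout replicate 3 (17.8%), without wild-type replicate 2 (21.9%) and without wild-type replicate 3 (21.0%), and 1 without knockout replicate 1 (20.1%) or wild-type replicate 1 (17.3%). The median log2 difference, knockout minus wild type, was -0.10 over the 8 genes and -0.016 over all probe sets tested.

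**Figure D1:**
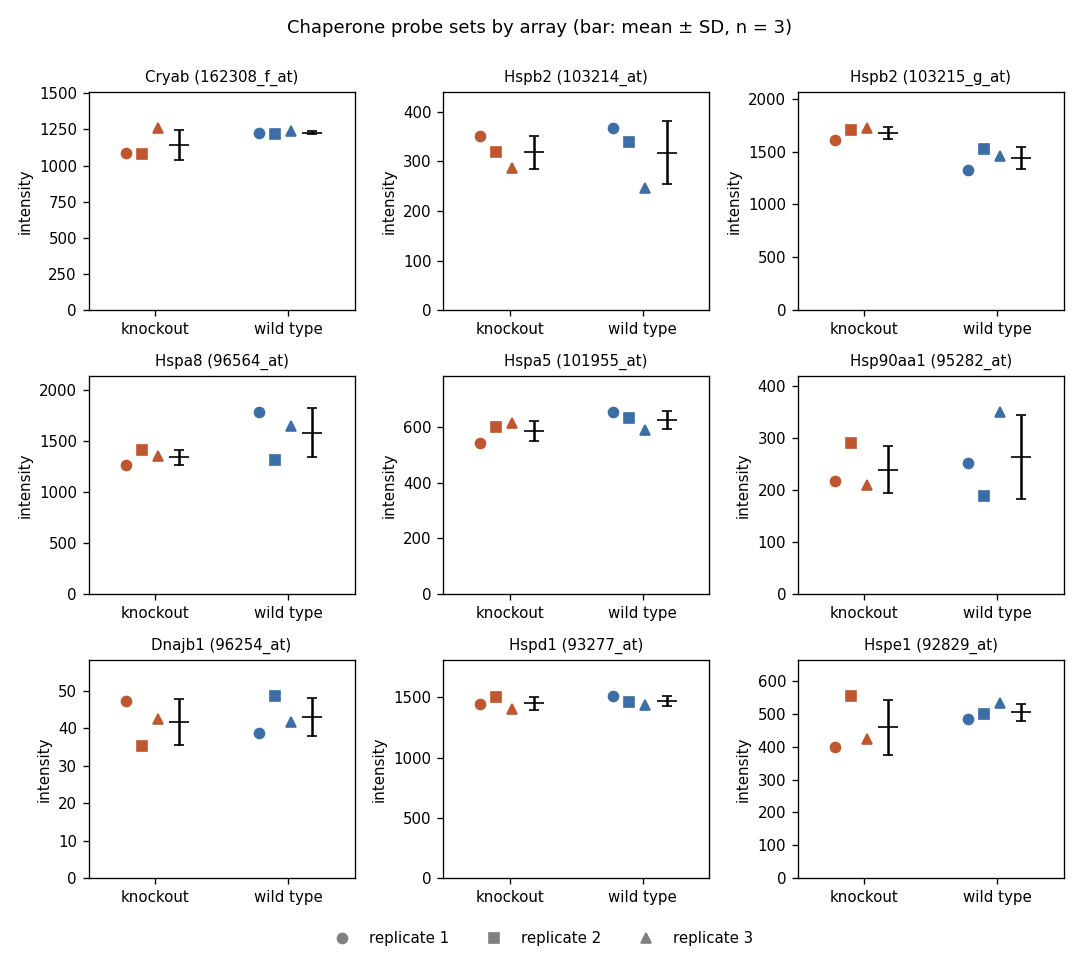
Signal intensity (linear scale, axes from 0) of the 9 tested chaperone probe sets on the 3 knockout and 3 wild-type arrays. Points are arrays, shaped by replicate, and the black bar is the mean with its SD. Only the Hspb2 probe set 103215_g_at separates the groups.

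Among the small heat shock proteins, Hspb2 had the smallest unadjusted p, 0.0376. Hspb2 encodes a small heat shock protein of heart and skeletal muscle that binds the myotonic dystrophy protein kinase. Its probe set 103215_g_at read 1613.0, 1699.1 and 1722.5 in the knockout and 1321.1, 1528.0 and 1459.2 in wild type. Each knockout array was above each wild-type array. The ratio of knockout to wild type was 1.17 (95% interval 1.01 to 1.35), a log2 difference of 0.23 ± 0.094 (SE, n = 3 each; limma adjusted p = 0.923). The second Hspb2 probe set, 103214_at, was annotated to the same expressed sequence and did not separate the groups. It read 352.4, 318.2 and 285.9 in the knockout and 367.5, 339.8 and 246.0 in wild type, and the group means of 318.8 and 317.8 were nearly equal (log2 difference 0.021, 95% interval -0.36 to 0.40). Wild-type replicate 3 was the lowest array for this probe set, while wild-type replicate 1 was the lowest for the other. The g and f suffixes in probe set names mark sets that may share probes with related sequences, so the identity of such a signal is less certain.

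In each of the 3 couples of adjacent title numbers, probe set 103215_g_at was higher in the knockout sample, with log2 differences of 0.29, 0.15 and 0.24. The difference was 0.26 within the 4 arrays of the larger prefix and 0.15 within the other 2. Because each knockout array was above each wild-type array, the sign in any couple or prefix was fixed and adds no support. It was 0.14 after quantile normalization and 0.29 after scaling to a common median. Skeletal muscle markers lay on the same side as this probe set, with 8 of 8 higher on average in the knockout, and of slow fibre genes 11 of 13 were higher (median log2 difference 0.21). That median was 0.00027 after quantile normalization and 0.096 without wild-type replicate 1. Csrp3 stood at a ratio of 1.77, Ankrd2 at 1.51, Fhl1 at 1.26, Mb at 1.20 and Atp2a2 at 0.966. The summed intensity of the slow fibre genes was 82032, 90489 and 84920 in the knockout and 64587, 83362 and 74929 in wild type. Their part in the Hspb2 difference was not tested.

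Cryab encodes alpha B-crystallin, the small heat shock protein that protects desmin and is abundant in slow fibres. Hspb2 has the opposite orientation, and its RefSeq span lies inside that of Cryab. Probe set 162308_f_at of Cryab read 1089.6, 1077.8 and 1259.4 in the knockout and 1226.2, 1218.2 and 1237.1 in wild type. The wild-type arrays lay close together, and the highest and lowest values were both in the knockout, so the groups overlapped. The ratio was 0.928 (95% interval 0.797 to 1.08; limma adjusted p = 0.958), with a mean of 1142 ± 101.6 in the knockout and 1227 ± 9.49 in wild type (SD, n = 3 each). The differences of Cryab and Hspb2 thus had opposite signs. The other Cryab probe set, 93279_at, read no more than 6.4 in the knockout and 20.5 in wild type and was not tested.

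Hspb1, the small heat shock protein that associates with actin filaments, was represented by 1 probe set close to background. It read 9.8, 9.4 and 11.4 in the knockout and 5.8, 18.9 and 4.7 in wild type. These values lay below 39.4 on all 6 arrays, so no level of Hspb1 was measured. In all, the 4 untested chaperone probe sets gave 24 values between 1.6 and 29.0, of which 11 were at or below the floor of 7.8. For 3 of the 4, of Cryab, Hspb1 and Hsp90aa1, the highest array was wild-type replicate 2. That array was also the highest for 22.3% of 5209 dim probe sets, against 14.0% to 17.1% for each of the others. The remaining one, 161140_r_at of Hspd1, read 15.3, 29.0 and 16.5 in the knockout and 20.5, 14.6 and 13.0 in wild type.

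Of the cytosolic chaperones, Hspa8 had the largest difference by ratio. Hspa8 encodes Hsc70, the constitutive Hsp70 of the cytosol, which folds new proteins and delivers others to lysosomes. It read 1263.4, 1410.3 and 1355.9 in the knockout and 1786.6, 1318.2 and 1651.4 in wild type. The knockout arrays lay close together, and wild-type replicate 2 fell among them, well below the other wild-type arrays. The ratio was 0.853 (95% interval 0.704 to 1.03) and the log2 difference -0.23 ± 0.12 (SE, n = 3 each; limma adjusted p = 0.937). Hspa8 was lower in the knockout by a log2 difference of -0.39 within the 4 arrays of the larger prefix, and stood at 0.097 within the 2 arrays of the smaller one. Whether the prefixes differ was not tested, since the smaller one holds 1 array per group. Without wild-type replicate 2, the only wild-type array within the knockout range, the groups could not overlap (log2 difference -0.36, limma adjusted p = 0.760). In that setting 21.9% of all probe sets tested did not overlap. The groups of Hspa8 did not overlap after quantile normalization either (-0.35, limma adjusted p = 0.999), against 9.31% of all probe sets.

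Hsp90aa1, the stress-inducible cytosolic Hsp90, varied more between arrays than any other tested chaperone. It read 216.6, 290.0 and 210.2 in the knockout and 252.1, 188.0 and 349.3 in wild type. Both the lowest and the highest array were wild type, so the groups overlapped fully. The ratio was 0.927, with an interval from 0.654 to 1.32 that leaves room for a change in either direction. Within the larger prefix the log2 difference was -0.48, and within the smaller one it was 0.63. Its range over the 6 arrays was 0.89 on the log2 scale, and 79.6% of all probe sets tested had a smaller one.

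Dnajb1, the Hsp40 that stimulates the ATPase of Hsp70 and is itself a heat shock gene, was close to the limit for testing. It exceeded 39.4 on 4 of 6 arrays, with 47.2, 35.2 and 42.5 in the knockout and 38.7, 48.6 and 41.6 in wild type. The groups overlapped and the ratio was 0.966 (95% interval 0.654 to 1.43). Hsp90aa1 and Dnajb1 deviated in opposite ways on 6 of 6 arrays. On knockout replicate 3 and wild-type replicate 3, however, Dnajb1 deviated by only 0.0155 and -0.0154, so its sign there says little. Their profiles were the farthest apart of any 2 chaperone genes, by a root mean square distance of 0.42 on the log2 scale. The pair was picked after the values were seen.

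**Figure D2:**
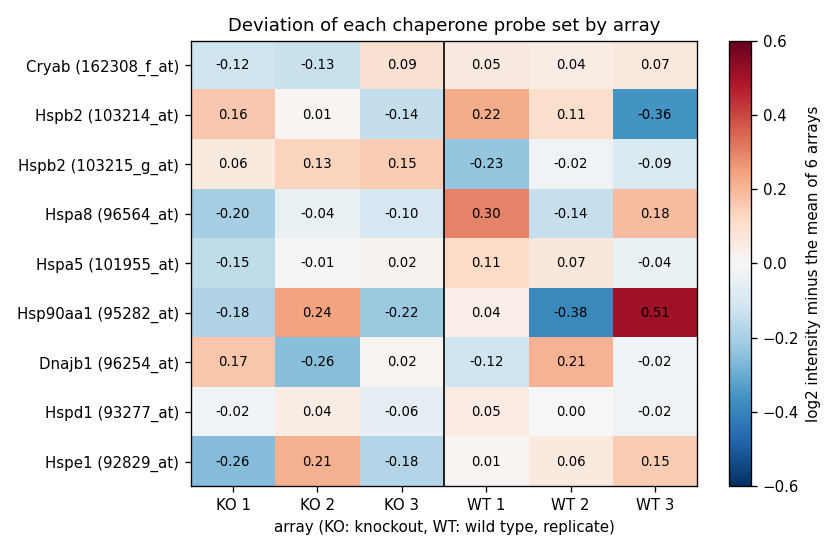
Deviation of each tested chaperone probe set (rows) on each array (columns, knockout left of wild type) from its own mean over the 6 arrays, on the log2 scale. Hsp90aa1 on wild-type replicate 3 has the largest deviation, 0.51, and Hspd1 stays within 0.06 of its mean on every array.

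Hspa5 encodes BiP, the Hsp70 of the endoplasmic reticulum and whose release from stress sensors starts the unfolded protein response. RefSeq promoter windows, 250 bases before to 50 after a start on GRCm38.p6, were found for 5 of the 10 genes, in 7 windows. The Hspa5 window is shown because its endoplasmic reticulum stress element is the sequence through which the unfolded protein response is known to act. It is given for the 250 bases before the start, at chr2:34771840-34772089 on the plus strand, with the match to the element in capitals.

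Hspa5: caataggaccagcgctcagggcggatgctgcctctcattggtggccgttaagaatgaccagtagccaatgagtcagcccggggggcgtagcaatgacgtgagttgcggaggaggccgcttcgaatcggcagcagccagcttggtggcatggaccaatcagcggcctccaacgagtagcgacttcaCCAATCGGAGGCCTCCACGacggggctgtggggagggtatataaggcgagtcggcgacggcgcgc

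The element searched was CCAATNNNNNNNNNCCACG on both strands. It occurs in 39 of 32851 promoter windows of the genome (0.119%), and Hspa5 was the only chaperone of the 5 with it. The match spans bases 65 to 47 before the start. It is a match of letters and was not tested for activity in these samples.

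Hspa5 read 542.6, 599.8 and 613.1 in the knockout and 653.2, 633.3 and 588.0 in wild type. The groups overlapped, with the lowest array in the knockout and the highest in wild type. The ratio was 0.936 (95% interval 0.793 to 1.10; limma adjusted p = 0.962).

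The mitochondrial chaperonin is built from Hspd1, the folding chamber Hsp60, and Hspe1, its lid Hsp10. The genes lie head to head and their RefSeq promoter windows overlap by 285 bases. The 215 bases between a start of Hspd1 and that of Hspe1 are at chr1:55087933-55088147 on GRCm38.p6. They are shown in the direction of Hspe1 because from these starts both genes read outward. The RefSeq span of Hspd1 runs on to 55088243, beyond the start of Hspe1 at 55088148, so the spans of the genes overlap. Capitals mark heat shock elements, the binding units of heat shock factor, searched as GAANNTTC and TTCNNGAA.

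Hspd1 and Hspe1: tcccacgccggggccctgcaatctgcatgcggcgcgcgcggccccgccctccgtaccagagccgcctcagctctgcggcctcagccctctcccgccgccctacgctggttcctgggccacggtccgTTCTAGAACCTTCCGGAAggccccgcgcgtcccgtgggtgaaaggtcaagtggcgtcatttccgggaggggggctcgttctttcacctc

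Both motifs read the same on either strand, and the 3 matches overlap, giving 4 units in a row. At least 1 of these motifs was found in 15.1% of all windows and in those of Hspb1, Hspd1 and Hspe1 among the chaperones. The run of 4 units, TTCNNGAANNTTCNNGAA, occurs in 5 of 32851 windows, and 2 of these are the windows of Hspd1 and Hspe1 that share it.

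Hspd1 was the steadiest of the chaperones. Its probe set 93277_at read 1441.7, 1503.6 and 1403.3 in the knockout and 1510.9, 1458.8 and 1435.0 in wild type, so that the highest array exceeded the lowest by a ratio of 1.08. Of the 6369 probe sets tested, 2 had a smaller range on the log2 scale. The ratio of knockout to wild type was 0.987, and its 95% interval of 0.863 to 1.13 was the narrowest among the chaperones (limma adjusted p = 0.996).

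Hspe1 read 399.4, 554.4 and 423.4 in the knockout and 483.1, 498.7 and 532.1 in wild type. Knockout replicates 1 and 3 lay below all wild-type arrays, and knockout replicate 2 lay above them. The ratio was 0.901 (95% interval 0.724 to 1.12; limma adjusted p = 0.958). Although they share the stretch shown above, Hspd1 and Hspe1 differed in spread, with ranges of 0.11 and 0.47 on the log2 scale over the 6 arrays. Hspe1 stood at -0.30 within the larger prefix and at 0.15 within the smaller one. Hspa8 and Hsp90aa1 had the same signs, as did Hspd1, at -0.050 and 0.044.

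**Figure D3:**
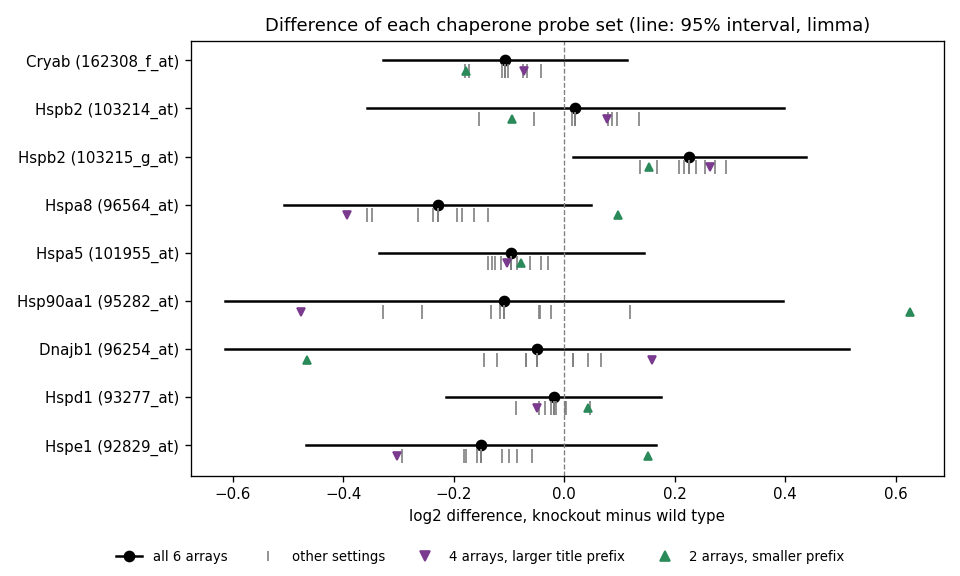
Log2 difference, knockout minus wild type, of each tested chaperone probe set with its 95% interval from limma (black). Grey ticks are the same difference under other settings, and triangles are the differences within each title prefix. All intervals but that of Hspb2 103215_g_at cross 0, and for 6 of the 9 probe sets the prefixes give opposite signs.

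Profiles over the 6 arrays were compared by the root mean square distance between log2 values, each centred on its own mean. Among the chaperones, Cryab and Hspa5 were the closest, at 0.078. The root mean square size of the profile itself was 0.090 for Cryab and 0.085 for Hspa5, so this distance was nearly as large as the profiles. It was 0.18 for Hspa8 and 0.038 for Hspd1. The 3 other genes nearest to Cryab were Mgat1, Nudt4 and Acot9, at 0.026 to 0.034. Those nearest to Hspa8 were Fbxw5, Col6a1 and Commd2, at 0.034 to 0.057. Rdx, Tpm4 and Taf1d lay nearest to Hspa5, at 0.015 to 0.030, and Slc25a20, Trappc2l and Atp5g2 nearest to Hspd1, each at 0.029. These distances are a description of 6 arrays and carry no test.

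The wider folding machinery was read from 8 gene lists, which held 111 tested genes besides the chaperones above. Of these 45 were higher and 66 lower in the knockout, with a median log2 difference of -0.047, and 0 reached an adjusted p of 0.05 in either direction (smallest limma adjusted p = 0.923). At an unadjusted p under 0.05 there were 9, or 8.11%, where 5.24% of all probe sets tested passed. The groups did not overlap for 20, or 18.0%, where the share over all probe sets tested was 10.7%.

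The list of the cytosolic Hsp70 system had 10 genes higher and 13 lower (median -0.047). Of the 23, 14 were lower after quantile normalization and 11 after median scaling, where 49.8% and 39.3% of all probe sets tested were lower. The list also held Dnajb11, which belongs to the endoplasmic reticulum and is described there. Bag1, a nucleotide exchange factor of Hsp70, read 268.5, 199.0 and 226.8 in the knockout and 299.7, 265.5 and 336.1 in wild type, a ratio of 0.768 with groups that overlapped. Bag2, which restrains the ubiquitin ligase partner of Hsp70, stood at a ratio of 1.20 and the ribosome-bound Dnajc2 at 0.855, both without overlap of the groups, while Hspa1l, a further Hsp70, had the list's highest log2 difference, 0.27. Co-chaperones of Hsp90 were split 6 to 6, with a median of -0.012 that ran from -0.069 without wild-type replicate 1 to 0.074 without wild-type replicate 3. Their values ranged from Ppid, a cyclophilin, at -0.32 and Chordc1 at -0.20 to the kinase adaptor Cdc37 at 0.13. The cytosolic chaperonin and prefoldin had 5 genes higher and 9 lower (median -0.027). Its subunits lay on both sides, with Cct8 at a ratio of 0.735, Cct4 at 0.889 and Tcp1 at 1.23.

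The 3 further tested genes of the small heat shock list were all higher in the knockout. Hspb8, which acts with Bag3 to clear damaged filamin, read 1414.9, 1506.4 and 1693.9 in the knockout and 1192.5, 1376.8 and 1391.1 in wild type. The groups did not overlap, and the ratio was 1.16, beside 1.17 for Hspb2 103215_g_at, with a limma adjusted p of 0.926 for Hspb8. After quantile normalization the groups overlapped for all 3 genes. Des, the desmin that small heat shock proteins protect, stood at 1.08 and Bag3 at 1.04. The 1 tested gene of the heat shock factor list, Hsbp1, a protein that binds heat shock factor, stood at 0.944.

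Endoplasmic reticulum chaperones and folding enzymes had 7 genes higher and 18 lower, with a median of -0.10. The groups did not overlap for 6 of the lower genes and 1 of the higher, where 5.23% of all probe sets tested were lower without overlap and 5.45% higher. The 6 were Dnajb9, Dnajb11, Dnajc3, Ppic, Fkbp9 and Derl2, and 0 of them passed the adjusted threshold. Derl2 met the limit for testing through the group where it was higher, wild type, and would not have met it on the knockout arrays alone. Dnajb9, Dnajb11 and Dnajc3, singled out here after their values were seen, encode J-domain partners of BiP. The list's other J-domain proteins, Dnajc1 at -0.16 and Dnajc10 at 0.096, had groups that overlapped. Dnajb9 read 180.2, 119.2 and 147.8 in the knockout and 202.5, 207.7 and 224.7 in wild type, a log2 difference of -0.52 ± 0.16 (SE, n = 3 each; limma adjusted p = 0.923). Its other probe set stood at -0.055. Dnajb11 stood at -0.27 and Dnajc3 at -0.21 (limma adjusted p = 0.958 each), with knockout values of 63.3, 58.7 and 53.8 for Dnajb11 against 66.1, 71.4 and 74.3 in wild type. The higher gene, Sdf2, a resident of the endoplasmic reticulum, read 75.9, 55.2 and 51.4 in the knockout and 34.9, 35.9 and 41.9 in wild type. Like Derl2, Sdf2 met the limit for testing through the group where it was higher, here the knockout. The list's highest value, that of P4hb, a protein disulfide isomerase, came from a probe set with 77.8 to 449.9 in wild type, and its other probe set stood at -0.50. After quantile normalization 16 of the 25 genes were lower and 4 of them without overlap, and after median scaling 15 and 4, with 4.15% and 2.87% of all probe sets tested in that class. Of all probe sets tested, 49.8% and 39.3% were lower under these settings, with medians of 0.00087 and 0.050. The list's median was -0.061 and -0.037 under them, and -0.058 without knockout replicate 3. Fibroblast markers, of a cell type rich in this compartment, were lower for 5 of 8 genes. Their summed intensity was 4772 to 5174 on the knockout arrays and 4545 to 5612 on the wild-type arrays, and their part in these differences was not tested.

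Regulators of the unfolded protein response did not move one way, with 5 genes higher and 8 lower (median -0.082). Without knockout replicate 2 the median was 0.084. Atf4, the transcription factor of the integrated stress response, read 654.9, 759.7 and 733.5 in the knockout and 591.2, 606.8 and 623.5 in wild type, a ratio of 1.18. Nfe2l1, which restores proteasome genes, stood at 1.20, and Atf3, a target of Atf4, at 0.697. In these 3 genes the groups did not overlap, and the limma adjusted p was 0.923 for each. They did not overlap either for Xbp1, a transcription factor of the unfolded protein response, at -0.10 (limma adjusted p = 0.964). Over all probe sets tested, 5.23% were lower and 5.45% higher without overlap. After quantile normalization 2 genes of the list were lower without overlap and 1 higher. After median scaling 0 were lower without overlap, Atf3 and Xbp1 included, and 2 higher. Of all probe sets tested, 4.15% and 2.87% were lower without overlap under these 2 settings. The share that was higher without overlap was not computed for them, so the counts of higher genes have no background here. Immediate early genes, which handling of the tissue can raise, were lower for 15 of 19, with Klf4 at 0.701, Dusp1 at 0.755 and Gadd45b at 1.33. Atf3 belongs to this list as well and is among the 15, so the lists are not separate. The immediate early genes had a summed intensity of 6313, 6568 and 6409 in the knockout and 6904, 6860 and 7586 in wild type. The part of handling in the chaperone values was not tested.

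Mitochondrial chaperones, proteases and import factors had 10 genes higher and 12 lower (median -0.045). After quantile normalization 14 of the 22 were lower (49.8% of all probe sets tested), and the median was -0.047. After median scaling 9 were lower (39.3% of all), and the median was 0.021, beside 0.050 over all probe sets tested. The list's median was 0.0085 without knockout replicate 1, 0.018 without knockout replicate 2, 0.023 without wild-type replicate 3 and 0.12 within the smaller prefix. Timm13 and Timm17a, of the mitochondrial import machinery, were higher without overlap, at ratios of 1.29 and 1.21. The import factors Timm8a1 and Tomm20 and the protease Yme1l1 were lower without overlap, at log2 differences of -0.21, -0.14 and -0.32. Over all probe sets tested, 5.23% were lower and 5.45% higher without overlap. After median scaling 0 genes of the list were lower without overlap and 3 higher. Of all probe sets tested, 2.87% were then lower without overlap. The share that was higher without overlap under median scaling was not computed, so the 3 higher genes have no background here. Timm13 read 924.7, 834.7 and 874.3 in the knockout and 652.5, 624.6 and 765.3 in wild type (limma adjusted p = 0.923). Grpel2, a partner of the mitochondrial Hsp70, stood at 0.794, the protease subunit Afg3l1 at 1.21 and the import factor Tomm34 at 1.64, all with groups that overlapped. Tomm34 read 175.4, 167.1 and 204.1 in the knockout and 96.2, 274.1 and 51.0 in wild type, so all knockout values lay within the wild-type range.

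**Figure D4:**
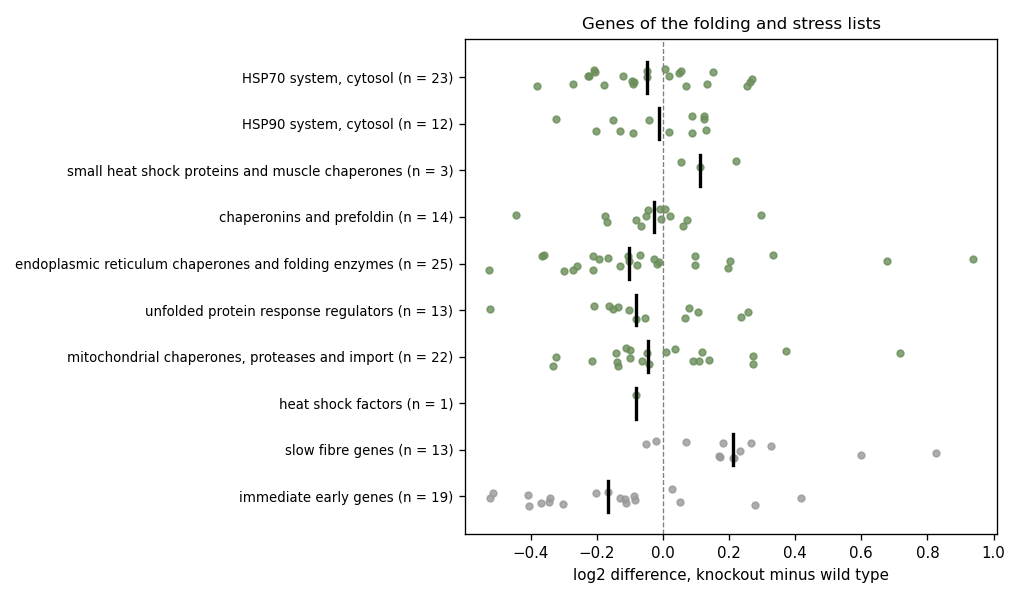
Log2 difference, knockout minus wild type, of each tested gene (points) of the 8 folding and stress lists (green) and of slow fibre and immediate early genes (grey). The black bar is the list's median, -0.10 for endoplasmic reticulum genes, 0.21 for slow fibre genes (0.00027 after quantile normalization) and -0.17 for immediate early genes.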

How the data were processed

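Soleus RNA of 3 knockout and 3 wild-type samples was measured on Affymetrix arrays. The authors deposited 1 signal intensity per probe set and array on a linear scale. Its mean without the lowest and highest 2% was 100.1 on each array, so that scaling was kept. The sources used here do not name the software. Replicates are numbered in order of deposit.

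Intensities were floored at the 20th percentile of all values (7.8), taken to log2 and fitted per probe set by limma 3.58.1 under R 4.3.3 (moderated two-sided tests whose variance prior followed intensity, p-values adjusted by Benjamini-Hochberg across 6369 probe sets). Intervals are limma's 95% intervals. Of 12488 probe sets, 66 controls were set aside, and 10833 of the others had 1 symbol. With 3 arrays a group, the smallest p of an exact permutation test is 0.1. The number of arrays limits the precision, with a median SE of 0.18 on the log2 scale.

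For a gene with several probe sets, lists use the one with the highest mean. Lists are described by counts and medians. Genes named are all chaperone probe sets, and per list the 3 smallest p and both extremes of log2 difference. Others were chosen after their values were seen. The chaperones and lists were chosen with earlier results of these data known. The fit was tested on simulated data.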

Additional observations from a re-analysis of the deposited data

How the results depend on the processing

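Under 16 alternatives with a test, 0 chaperone probe sets were called by limma at the 0.05 threshold, and their lowest adjusted p was 0.469, for Hspa8 over the 4 arrays of the larger title prefix. Over all probe sets 1 passed without the filter, 1 with a replicate block of adjacent title numbers, and 0 to 1 with an array left out. No label states that adjacent numbers mark paired animals, and the block changed no call of a chaperone (lowest adjusted p = 0.877). Chaperone probe sets whose groups did not overlap numbered 3 after quantile normalization (9.31% of all probe sets tested), 5 within the larger prefix (41.0%) and 1 to 2 with an array left out. The 2 arrays of the smaller prefix allow no test.

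Of 152 chaperone values under the alternatives, 16 changed sign, and 0 of these had been called. Changing the floor, the filter or the intensity trend, or adding a block, left the log2 differences as they were. Values under those alternatives are in the 152 but could not change sign, so the count understates how often signs moved. Median scaling, under which the median over the probe sets tested was 0.050, gave 0.047 for Hspd1 and 0.017 for Dnajb1. Dnajb1 stood at 0.016 after quantile normalization and 0.16 within the larger prefix. Within the smaller prefix Hspb2 103214_at stood at -0.095, Hspa8 at 0.097, Hsp90aa1 at 0.63, Hspd1 at 0.044 and Hspe1 at 0.15. With single arrays left out, the log2 differences that changed sign ran from -0.15 to 0.14 for Hspb2 103214_at, -0.33 to 0.12 for Hsp90aa1, -0.15 to 0.067 for Dnajb1 and -0.045 to 0.0043 for Hspd1. Those of Hspb2 103215_g_at (0.17 to 0.27), Hspa8 (-0.36 to -0.14), Hspe1 (-0.29 to -0.058), Hspa5 (-0.14 to -0.042) and Cryab (-0.18 to -0.067) kept their sign. Median scaling also turned the medians of the cytosolic Hsp70 system (0.019), the Hsp90 system (0.054) and the cytosolic chaperonin and prefoldin (0.039), and that of the last stood at 0.15 within the smaller prefix. With single arrays left out, the median over a list ran from -0.16 to -0.058 for endoplasmic reticulum genes, -0.13 to 0.084 for regulators of the unfolded protein response, -0.053 to 0.023 for mitochondrial genes, -0.062 to 0.023 for the cytosolic Hsp70 system, 0.096 to 0.29 for slow fibre genes and -0.27 to -0.10 for immediate early genes. The cause of these changes was not tested.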
